A study of Rattus norvegicus with 20 samples.

Results

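Cholesterol genes were followed in the dentate gyrus of rats made epileptic by electrical stimulation of the amygdala. The set was drawn up as 37 genes of cholesterol synthesis, sterol sensing, uptake, intracellular handling and efflux. A gene was measured if a probe set of the array was annotated to it alone, and where a gene had several such probe sets the brightest over all 20 arrays was taken. By this rule 34 of the 37 genes were measured, among 14586 genes in all, and all 34 lay above the background on all 20 arrays. Hmgcs1, Mvk and Srebf1 had no probe set of their own and were not analysed here. The members were 5 genes of the mevalonate steps and 11 of the squalene and sterol steps, which together are called the synthesis genes, 4 of sterol sensing, 2 LXR receptors, 3 of efflux, 3 of uptake, 5 of intracellular handling and 1 of neuronal cholesterol elimination.

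The rats were adult male Sprague-Dawley animals, and each array held the left dentate gyrus of 1 rat. Stimulated rats had an electrode in the left lateral amygdala, went through status epilepticus evoked by stimulation and stopped with diazepam, and were killed 7 d or 30 d later (5 rats each). Sham rats carried the electrodes without stimulation and were matched in time to the stimulated rats (5 rats at 7 d and 5 at 30 d). Values were log2 intensities, so a difference of 1 is a doubling, and they compare rats for 1 gene but not 1 gene with another.

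Brain cholesterol is made within the brain, because lipoproteins of the blood do not cross the blood-brain barrier. In the mature brain astrocytes make much of it and hand it to neurons on lipoproteins that contain apolipoprotein E, and oligodendrocytes use it for myelin. The transcription factor encoded by Srebf2 turns on the synthesis genes when the sterol content of the endoplasmic reticulum is low, whereas the LXR receptors respond to oxysterols and turn on the export genes Abca1, Abcg1 and Apoe. Debris of dying cells and myelin is taken up by microglia, which release its cholesterol from lysosomes through Npc1 and Npc2.

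The sequences of the promoters of 4 members are given. They come from Srebf2 and the genes it controls, the part of the pathway with most of the lower values at 7 d. Of these 4, Srebf2 and Cyp51 fell at 7 d at an adjusted p under 0.05 (limma). Ebp and Nsdhl did not pass (adjusted p = 0.0524 and 0.0973). Each window runs from 250 bases before to 50 bases after a RefSeq start in the GRCr8 assembly, and 28 of the 34 measured members had one. That start is not always the outer end of the gene. The Srebf2 gene begins at chr7:115542774, so its whole window lies inside the gene. The Insig2 window (chr13:35040049-35040348, minus strand) also lies inside its gene, whose outer end is at 35052937. Capitals mark CCAAT, the motif of NF-Y, and CACCCCAC, a core of the sterol regulatory element, on either strand, so that ATTGG is CCAAT read from the other strand. The windows are chr7:115543057-115543356 for Srebf2, chr4:30991443-30991742 for Cyp51, chrX:16971212-16971511 for Ebp and chrX:155817110-155817409 for Nsdhl, all on the plus strand.
Srebf2: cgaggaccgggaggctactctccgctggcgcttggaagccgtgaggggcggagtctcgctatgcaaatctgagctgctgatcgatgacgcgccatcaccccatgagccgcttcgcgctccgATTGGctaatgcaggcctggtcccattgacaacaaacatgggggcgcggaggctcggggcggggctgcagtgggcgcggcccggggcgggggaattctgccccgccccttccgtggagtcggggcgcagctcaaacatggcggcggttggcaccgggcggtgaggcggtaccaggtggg
Cyp51: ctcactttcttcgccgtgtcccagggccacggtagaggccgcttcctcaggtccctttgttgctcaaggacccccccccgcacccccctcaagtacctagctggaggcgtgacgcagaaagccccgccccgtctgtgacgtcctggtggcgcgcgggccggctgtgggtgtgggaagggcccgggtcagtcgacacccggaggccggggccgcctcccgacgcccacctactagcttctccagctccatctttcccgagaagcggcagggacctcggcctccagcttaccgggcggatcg
Ebp: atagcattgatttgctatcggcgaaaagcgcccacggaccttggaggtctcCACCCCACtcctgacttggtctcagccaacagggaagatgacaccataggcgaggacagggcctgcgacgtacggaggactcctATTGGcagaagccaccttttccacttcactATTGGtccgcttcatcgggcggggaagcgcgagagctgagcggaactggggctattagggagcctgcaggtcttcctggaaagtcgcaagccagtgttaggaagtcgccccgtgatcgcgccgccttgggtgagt
Nsdhl: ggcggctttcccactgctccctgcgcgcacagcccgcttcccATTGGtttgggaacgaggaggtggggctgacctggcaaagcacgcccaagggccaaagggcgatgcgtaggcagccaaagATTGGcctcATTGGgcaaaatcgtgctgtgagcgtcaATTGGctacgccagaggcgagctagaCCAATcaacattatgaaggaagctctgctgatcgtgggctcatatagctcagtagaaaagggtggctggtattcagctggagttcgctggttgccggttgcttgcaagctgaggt

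CCAAT was found in 10 of the 13 synthesis promoters, or 76.9%, and in 37.2% of the 11914 promoters of genes tested on the array. The synthesis genes Pmvk, Fdft1 and Sqle had no window, and neither had the members Stard4, Abcg1 and Lpl. Over all 28 members with a window CCAAT was found in 19, or 67.9%, also in that of Npc2, so it was not particular to the synthesis genes. The Nsdhl window holds CCAAT 5 times and the Cyp51 window not at all. GGGCGG, the motif of Sp1, was found in 11 of the 13, or 84.6%, in 21 of the 28 members, or 75.0%, and in 55.9% of all promoters. CACCCCAC was found in 1 of the 13, that of Ebp, and in 2.64% of all promoters, and CACGTG, an E-box, in 1 of the 13, that of Sc5d, and in 8.83% of all promoters. Both strands were searched, and none of these motifs is contained in another. Only the exact letters were searched, so variants of a motif were not counted, and a window without a match may still hold one. A match describes the letters of a window, not a bound site.

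Srebf2 also carries a miRNA, whose mature sequence is shown because it is encoded on the same strand within the gene that was lower at 7 d and because Abca1 is among its best known targets. In GRCr8 the mature strand lies at chr7:115593957-115593977, and capitals mark its seed, bases 2 to 8. Its level was not analysed here.
rno-miR-33-5p: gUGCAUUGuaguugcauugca

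The arrays were alike in brightness, with medians of 5.22 to 5.31 and 79.0% to 80.9% of probe sets above the background. Array 5 of the stimulated rats at 7 d and array 3 of the sham rats at 30 d had the lowest mean correlations with the other arrays (0.983 and 0.987). All 4 granule cell markers listed for the dentate gyrus were measured, and their mean level overlapped between stimulated and sham rats at both times (7.97 to 8.20 against 7.96 to 8.42 at 7 d, and 7.94 to 8.25 against 8.10 to 8.41 at 30 d). The markers did not move alike: at 7 d Calb1, a calcium-binding protein of granule cells, fell (-0.38, adjusted p = 0.0214, limma), with all 5 stimulated rats below all 5 sham rats, whereas Dsp had a change of 0.51 (adjusted p = 0.311). Calb1 had a change of -0.35 at 30 d (adjusted p = 0.0741). The mean level of 3 markers of CA1 neurons, a neighbouring field, was 6.01 to 7.47 in the stimulated rats and 6.18 to 7.12 in the sham rats at 30 d, and it was highest in stimulated rats 5 and 4 and sham rat 2 of that time.

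At 7 d after stimulation single genes of sterol synthesis, sterol sensing, sterol transfer and lipoprotein uptake were lower in the dentate gyrus, and a gene of cholesterol export and a gene of lysosomal release were higher. Of the 34 members, 4 fell, namely Cyp51, Srebf2, Stard4 and Lpl, and 2 rose, namely Abca1 and Npc2 (limma, Benjamini-Hochberg adjusted p under 0.05 over all 15800 probe sets tested). The 4 genes that fell are 11.8% of the members, against 2.46% of all probe sets, and the 2 that rose are 5.88%, against 4.02%. All 5 stimulated rats lay below all 5 sham rats for Acat2, Cyp51, Srebf2 and Stard4 and above them for Abca1, Npc2, Soat1 and Lrp1, which is 11.8% of members in each direction, against 2.44% of all probe sets below and 3.81% above. In bulk tissue such values do not tell fewer cells of a type and less RNA per cell apart.

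**Figure D1:**
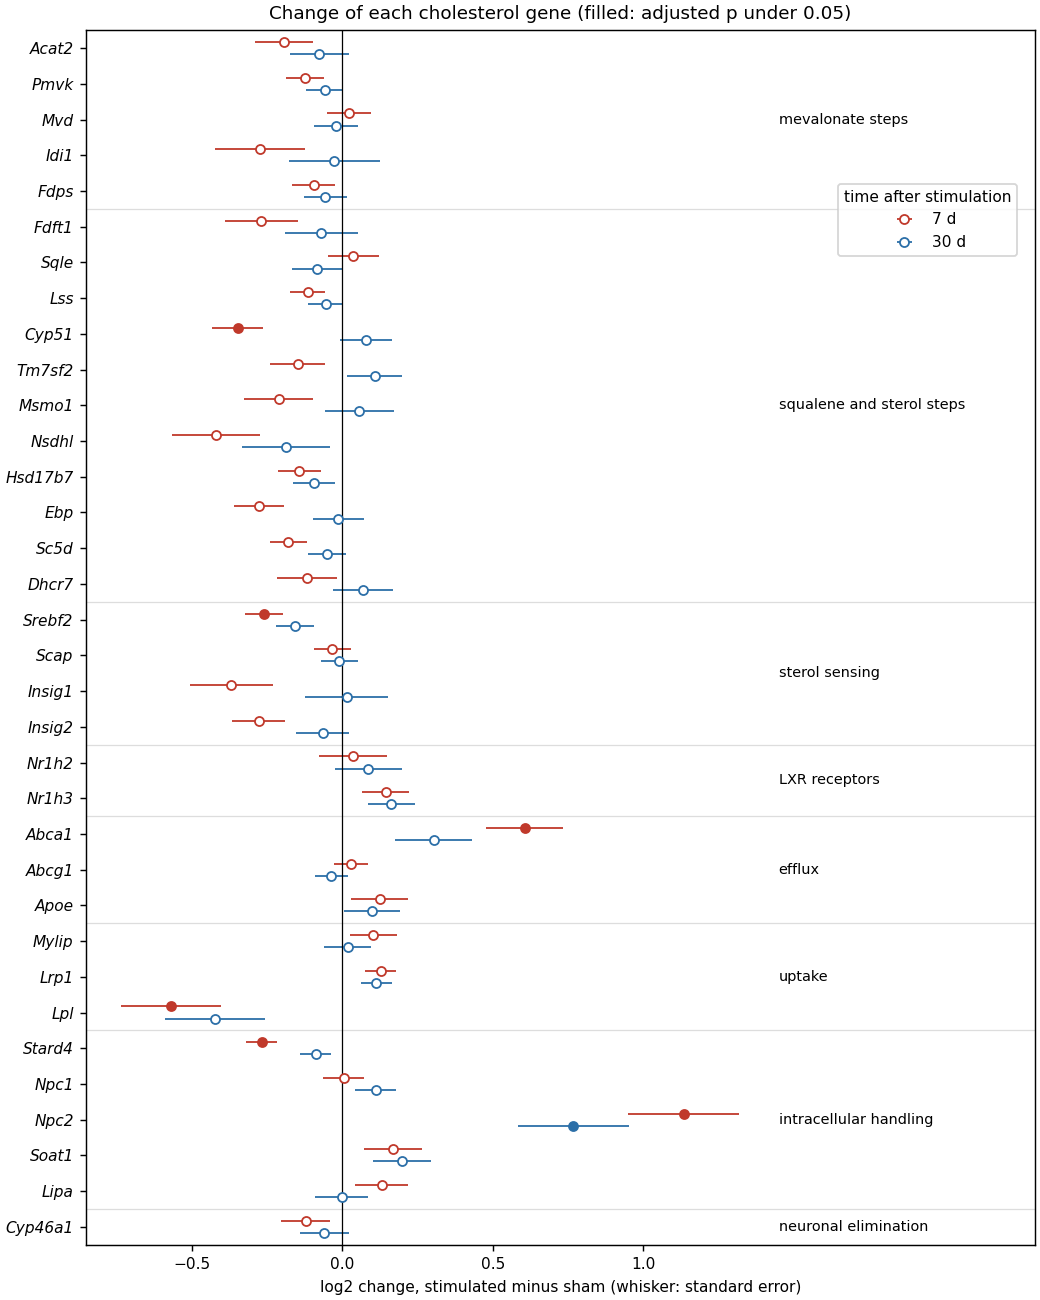
Log2 change, stimulated minus sham, of the 34 cholesterol genes at 7 d (red) and 30 d (blue), with the standard error as a whisker and n = 5 rats per group. Filled points have an adjusted p under 0.05, which are 6 genes at 7 d and Npc2 alone at 30 d, and 14 of the 16 synthesis genes lie left of 0 at 7 d.

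Among the synthesis genes 1 of 16 passed the test at 7 d, Cyp51, the lanosterol demethylase. Cyp51 measured 8.67, 8.47, 8.68, 8.57 and 8.75 in the stimulated rats, against 8.90, 9.12, 8.93, 8.88 and 9.04 in the sham rats. The highest stimulated rat was below the lowest sham rat. Cyp51 intensity fell by 21.4%, a log2 change of -0.35 ± 0.086 (SE, adjusted p = 0.015, limma).

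The other synthesis genes mostly lay on the same side without passing the test. The change was negative for 14 of the 16, with a median of -0.16, whereas 49.3% of all probe sets were negative, with a median of 0.00. The lowest were Nsdhl (-0.42, adjusted p = 0.0973), a dehydrogenase that removes a methyl group from the sterol ring, Ebp (-0.28, adjusted p = 0.0524), a sterol isomerase, Idi1 (-0.27), an isomerase of the isoprene units, and Fdft1 (-0.27), the squalene synthase. At an unadjusted p under 0.05, 5 of the 16 were lower (31.2%, against 8.37% of all probe sets) and 0 higher (against 10.1%) by limma. The 2 positive genes were Sqle (0.04), the squalene epoxidase, and Mvd (0.02), a decarboxylase of the mevalonate steps.

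Nsdhl varied widely among the rats of both groups. It measured 7.69, 7.30, 7.37, 6.94 and 6.92 in the stimulated rats and 7.66, 7.91, 7.26, 7.99 and 7.49 in the sham rats at 7 d. Stimulated rats 4 and 5 were below every sham rat, and stimulated rat 1 was above 3 of them. Ebp measured 6.73, 6.86, 6.67, 6.59 and 6.38 in the stimulated rats, against 6.94, 7.00, 6.73, 7.08 and 6.86 in the sham rats, and overlapped only through sham rat 3. The mean level of the 16 synthesis genes was 7.19 to 7.32 in the stimulated rats and 7.35 to 7.48 in the sham rats, with no overlap.

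Rats of 1 group also differed from each other in several synthesis genes together, an observation made after the values were seen. In the sham rats at 7 d, rats 2 and 4 had the highest levels of Idi1 (6.30 and 6.31), Fdft1 (9.11 and 9.13), Msmo1 (8.95 and 8.92) and Nsdhl (7.91 and 7.99). Sham rat 3 of that time had the lowest levels of Fdft1 (8.71), Msmo1 (8.42), Nsdhl (7.26) and Ebp (6.73). Without this sham rat 7 members were lower at 7 d instead of 4, without stimulated rat 1 there were 8, and without stimulated rat 5 there were 2.

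**Figure D2:**
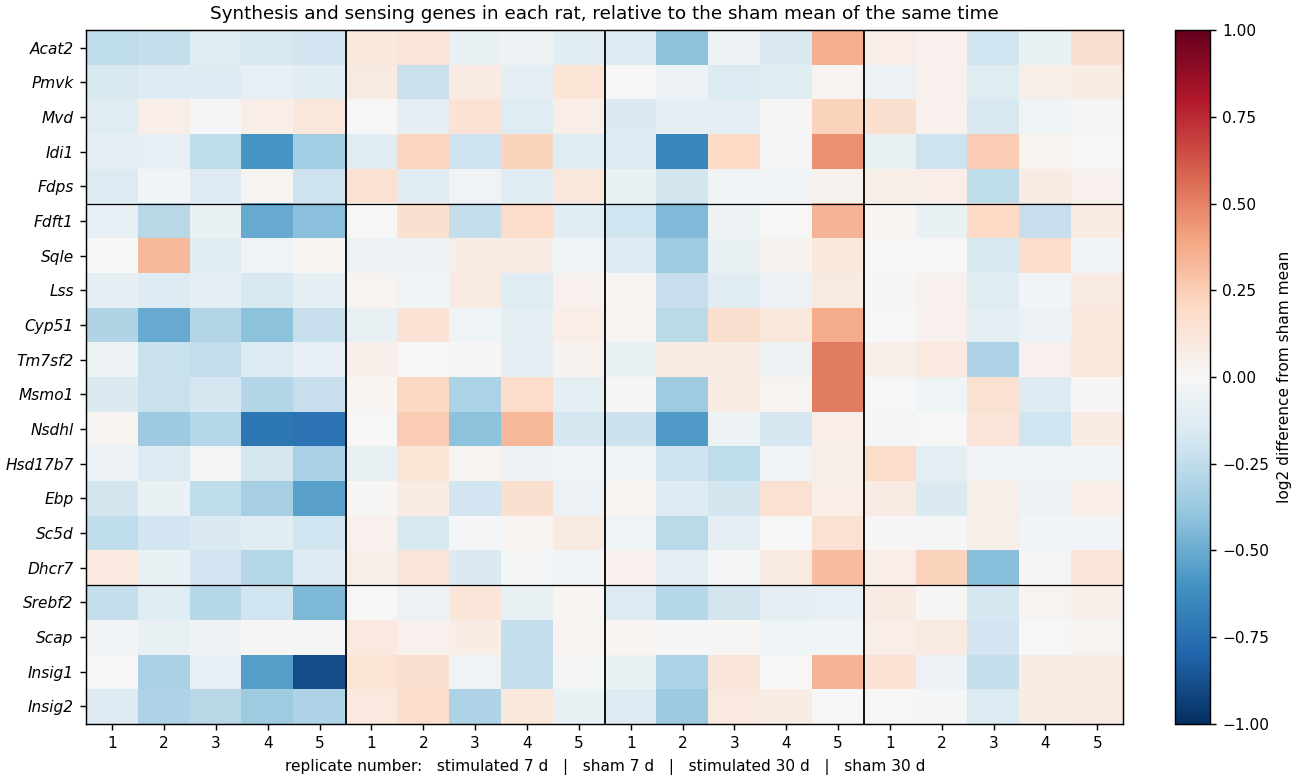
Log2 difference of each rat from the mean of the sham rats of its own time, for the 16 synthesis genes and 4 sterol sensing genes, in stimulated and sham rats at 7 d and at 30 d (5 rats each). Blue is lower and red is higher: the stimulated rats at 7 d are mostly blue, and at 30 d stimulated rat 2 is mostly blue while stimulated rat 5 is mostly red.

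Of the 4 sterol sensing genes 1 fell at 7 d, Srebf2, whose protein is the transcription factor that drives the synthesis genes. Srebf2 measured 8.89, 9.01, 8.85, 8.93 and 8.68 in the stimulated rats, against 9.13, 9.07, 9.25, 9.06 and 9.15 in the sham rats. The groups did not overlap. The log2 change was -0.26 ± 0.063 (SE, adjusted p = 0.0143), and it was -0.21 with an adjusted p of 0.0513 by limma without stimulated rat 5, the lowest (range 0.0081 to 0.0513 over the fits that left out 1 rat).

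Insig1 and Insig2 encode proteins that hold the precursor of this factor in the endoplasmic reticulum. Insig1 measured 8.03, 7.70, 7.94, 7.48 and 7.14 in the stimulated rats, against 8.16, 8.18, 7.99, 7.78 and 8.01 in the sham rats. Of the stimulated rats 3 were below every sham rat and the other 2 were within their range. The change of the brightest probe set was -0.37 (adjusted p = 0.128), and that of a dimmer probe set of the gene was -0.37 (adjusted p = 0.0175). Insig2 had a change of -0.28 (adjusted p = 0.0647), and Scap, which escorts the precursor out of the endoplasmic reticulum, one of -0.03 (adjusted p = 0.84).

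Stard4, a carrier that moves cholesterol between membranes, fell as well. It measured 4.73, 4.88, 4.61, 4.77 and 4.74 in the stimulated rats, against 4.97, 5.06, 4.90, 5.06 and 5.08 in the sham rats at 7 d. Every stimulated rat was lower than every sham rat, although the highest stimulated rat (4.88) was close to the lowest sham rat (4.90). Stard4 was dim, with a mean over all arrays of 4.91, above only 24.4% of the probe sets tested. The log2 change was -0.27 ± 0.051 (SE, adjusted p = 0.00238).

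**Figure D3:**
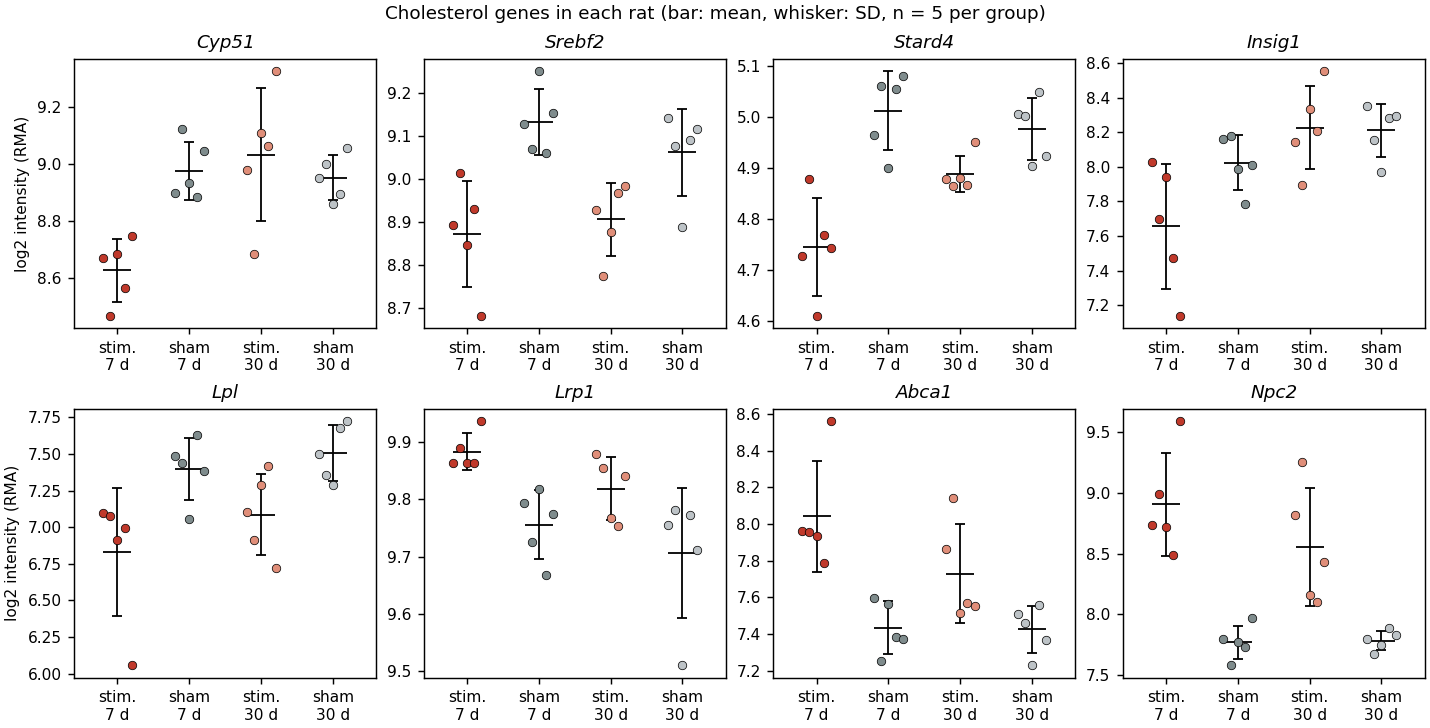
Log2 intensity of 8 cholesterol genes in each rat, for stimulated and sham rats at 7 d and at 30 d, with the mean as a bar and the SD as a whisker (n = 5 per group). Cyp51, Srebf2 and Stard4 of the stimulated rats lie below the sham rats at 7 d, and Npc2 lies above them at both times.

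Of the genes of efflux and its receptors 1 of 5 rose at 7 d. Abca1, the transporter that loads cholesterol onto lipoproteins, measured 7.96, 7.96, 7.93, 7.79 and 8.56 in the stimulated rats, against 7.60, 7.25, 7.57, 7.38 and 7.37 in the sham rats. All stimulated rats were above all sham rats, and stimulated rat 5 stood above the rest. Abca1 was 1.52-fold higher, a log2 change of 0.61 ± 0.13 (SE, adjusted p = 0.00494).

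Abcg1, a second sterol transporter, had a change of 0.03 and Apoe, the main lipoprotein component of the brain, one of 0.12 (adjusted p = 0.845 and 0.537). The receptor genes Nr1h2 and Nr1h3 had changes of 0.04 and 0.14 (adjusted p = 0.915 and 0.334). The median over the 5 genes was 0.12.

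Npc2, the soluble lysosomal protein that binds cholesterol released from lipoproteins and debris, had the largest change of the 34 members. It measured 8.74, 8.99, 8.72, 8.49 and 9.59 in the stimulated rats, against 7.79, 7.58, 7.77, 7.73 and 7.97 in the sham rats at 7 d. The groups were far apart, with stimulated rat 5 the highest. Npc2 was 2.20-fold higher, a log2 change of 1.13 ± 0.19 (SE, adjusted p = 0.000717).

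Npc1, the lysosomal membrane protein to which Npc2 passes its cholesterol, had a change of 0.00 (adjusted p = 0.984). Lipa, the lysosomal acid lipase, had one of 0.13 (adjusted p = 0.473). Soat1, which esterifies cholesterol for storage, measured 6.68, 6.77, 6.67, 6.64 and 7.11 in the stimulated rats, against 6.63, 6.57, 6.63, 6.63 and 6.57 in the sham rats. The groups of Soat1 did not overlap but lay close except for stimulated rat 5, and the change of 0.17 did not pass the test (adjusted p = 0.373).

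The uptake genes differed in direction. Lpl, the lipoprotein lipase, measured 7.10, 7.08, 6.91, 7.00 and 6.06 in the stimulated rats, against 7.48, 7.44, 7.05, 7.63 and 7.38 in the sham rats at 7 d. Sham rat 3 lay among the stimulated rats, and stimulated rat 5 was far below the rest. The log2 change was -0.57 ± 0.17 (SE, adjusted p = 0.0422), and it was -0.38 (adjusted p = 0.108) by limma without stimulated rat 5. Over the fits that left out 1 rat the adjusted p was 0.0224 to 0.116, and the call was also lost without sham rat 1, 2, 4 or 5 or stimulated rat 3 of 7 d, or without sham rat 1 or 2 or stimulated rat 1 of 30 d. It was lost as well with no filter on dim probe sets (adjusted p = 0.0992), with unmoderated t statistics (adjusted p = 0.0980) and in a limma fit of the 7 d rats alone (adjusted p = 0.103).

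Lrp1, a receptor for lipoproteins that carry apolipoprotein E, measured 9.86, 9.89, 9.86, 9.86 and 9.94 in the stimulated rats, against 9.79, 9.73, 9.82, 9.67 and 9.77 in the sham rats. The stimulated rats were all above the sham rats by a small distance (0.13, adjusted p = 0.167). Mylip, a ubiquitin ligase that marks lipoprotein receptors for breakdown, had a change of 0.10 (adjusted p = 0.529). Cyp46a1, the neuronal hydroxylase through which the brain disposes of cholesterol, had one of -0.12 (adjusted p = 0.473).

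Markers of other cell types were read in the same rats, and the lists did not move alike. Of 9 microglial markers measured 8 were higher at 7 d and 5 at 30 d, and their mean level was 7.33 to 8.23 in the stimulated rats, against 6.72 to 6.80 in the sham rats at 7 d, and 7.00 to 7.95, against 6.70 to 7.04, at 30 d. All 9 passed the filter on dim probe sets. Stimulated rat 5 at 7 d, the highest in Abca1 and Npc2 and the lowest in Lpl, Srebf2 and Insig1, was also the highest in these markers. Among the stimulated rats at 7 d this rat was also the lowest in Nsdhl (6.92), Ebp (6.38) and Hsd17b7 (5.99). Its Cyp51 (8.75), in contrast, was the highest and its Stard4 (4.74) the middle value. The mean level of the synthesis genes at 7 d was lowest in stimulated rat 4 (7.19), closely followed by stimulated rat 5 (7.20). Of the stimulated rats at 7 d, rat 4 was the lowest in the microglial markers (7.33) and rat 5 the highest (8.23). Of 7 astrocyte markers 2 were higher at 7 d, Gfap (1.13) and Aqp4 (0.37), and 1 at 30 d, Gfap (0.93). At 7 d 4 of the 7 had a negative change, among them Aldoc (-0.17, unadjusted p = 0.0407, limma), and the median was -0.01. At 30 d 0 were negative. Of 4 granule cell markers 1, Calb1, was lower at 7 d and 0 were called at 30 d. Of 6 general neuronal markers 0 were called at 7 d and 1 was lower at 30 d. Of 8 oligodendrocyte markers 0 were called at either time (1 at 7 d and 2 at 30 d were higher at an unadjusted p under 0.05, by limma). The part of these markers in the changes of the cholesterol genes was not tested.

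Without the 2 arrays that correlated least with the others, 5 of the 6 calls at 7 d held: Npc2 (0.96, adjusted p = 0.0024), Abca1 (0.48, adjusted p = 0.0105), Stard4 (-0.27, adjusted p = 0.0061), Srebf2 (-0.21, adjusted p = 0.0242) and Cyp51 (-0.38, adjusted p = 0.0189). Lpl did not (-0.38, adjusted p = 0.0953).

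**Figure D4:**
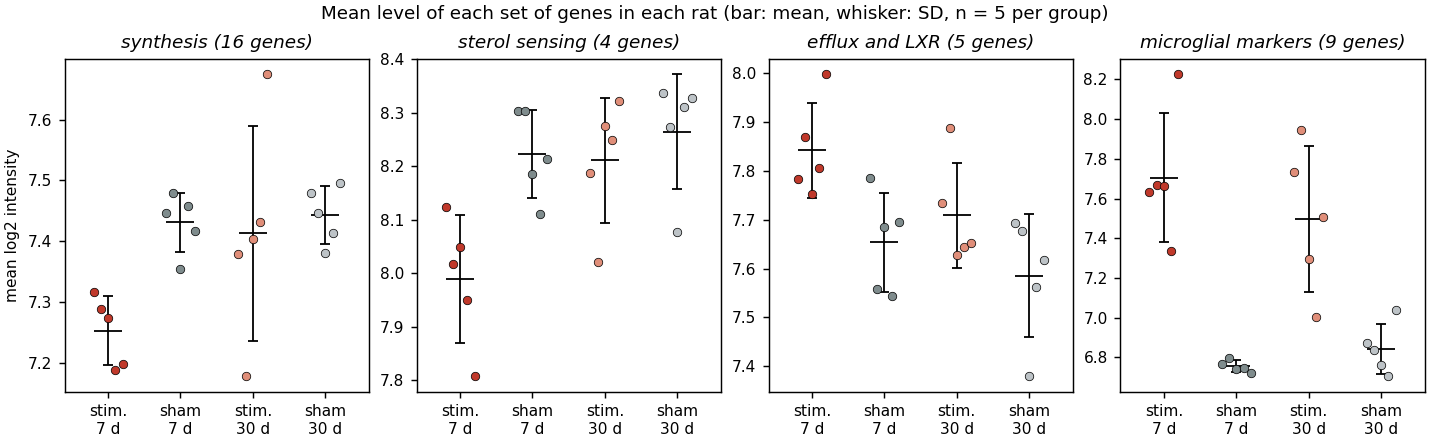
Mean log2 intensity of the 16 synthesis genes, 4 sterol sensing genes, 5 genes of efflux and LXR receptors and 9 microglial markers in each rat, for stimulated and sham rats at 7 d and at 30 d (bar, mean, and whisker, SD, n = 5 per group). The synthesis genes of the stimulated rats lie at 7.19 to 7.32 at 7 d and spread over 7.18 to 7.68 at 30 d, and the microglial markers lie above those of the sham rats at 7 d.

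At 30 d 1 member differed between stimulated and sham rats. Npc2 rose and 0 members fell, which is 2.94% and 0.0% of the members, against 0.835% of all probe sets higher and 0.899% lower. At an unadjusted p under 0.05 by limma, 4 members were higher (Npc2, Abca1, Lrp1 and Nr1h3) and 2 lower (Lpl and Srebf2), which is 11.8% and 5.88%, against 5.42% of all probe sets higher and 5.96% lower. Npc2 was the 1 member whose groups did not overlap, with 1.84% of all probe sets entirely above and 2.42% entirely below.

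Npc2 measured 8.82, 9.25, 8.16, 8.10 and 8.43 in the stimulated rats, against 7.79, 7.67, 7.74, 7.89 and 7.83 in the sham rats at 30 d. The stimulated rats were all above the sham rats and spread more widely. The log2 change was 0.77 ± 0.19 (SE, adjusted p = 0.0355), or 1.70-fold. The call at 30 d was lost without any 1 of the 5 sham rats or of stimulated rats 1, 2 and 5 of that time, and over all fits that left out 1 rat the change was 0.59 to 0.88 with an adjusted p of 0.0092 to 0.108 (limma).

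Abca1 measured 7.86, 8.14, 7.51, 7.57 and 7.55 in the stimulated rats, against 7.51, 7.46, 7.23, 7.56 and 7.37 in the sham rats at 30 d. Stimulated rats 1 and 2 were clearly above the sham rats and the other 3 lay at their upper end. The change was 0.30 (adjusted p = 0.323). Lpl, at 7.10, 6.91, 7.28, 7.41 and 6.72 in the stimulated rats, against 7.50, 7.36, 7.29, 7.67 and 7.73 in the sham rats, had a change of -0.42 (adjusted p = 0.279), and overlapped only through stimulated rat 4.

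Srebf2 measured 8.93, 8.77, 8.88, 8.97 and 8.98 in the stimulated rats, against 9.14, 9.08, 8.89, 9.09 and 9.12 in the sham rats at 30 d. The groups overlapped only through sham rat 3, whose array is 1 of the 2 that correlated least with the others. The change was -0.16 (adjusted p = 0.296), and without those 2 arrays it was -0.20 (adjusted p = 0.0575, limma).

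The synthesis genes showed no call at 30 d (0 of 16 by limma, also at an unadjusted p under 0.05). The change was negative for 12 of the 16, with a median of -0.05, against 53.0% of all probe sets and a median of -0.01. Cyp51 measured 8.98, 8.69, 9.11, 9.06 and 9.32 in the stimulated rats, against 8.95, 9.00, 8.86, 8.90 and 9.06 in the sham rats. Its stimulated rats lay on both sides of the sham rats, with a change of 0.08 (adjusted p = 0.822).

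Stimulated rats at 30 d were less alike in the synthesis genes than the sham rats. The mean level of the 16 genes was 7.18 to 7.68 in the stimulated rats (SD 0.177) and 7.38 to 7.50 in the sham rats (SD 0.047). Stimulated rat 2 was below all sham rats in 10 of the 16 genes, whereas stimulated rat 5 was above all of them in 10. Among the rats at 30 d stimulated rat 5 also had the highest level of the CA1 markers, 7.47, of the oligodendrocyte markers, 8.55, against at most 8.26 in the other stimulated rats and 8.29 in the sham rats, and of the choroid plexus markers, 5.11, and the lowest of the granule cell markers, 7.94. Stimulated rat 2 had the highest level of the microglial markers, 7.95. The part of these markers in the spread was not tested.

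Averaged over both times, 3 members rose and 3 fell, 8.82% of the members in each direction, against 5.59% of all probe sets higher and 4.46% lower. Npc2 (0.95, adjusted p = 5.85e-05), Abca1 (0.46, adjusted p = 0.0017) and Lrp1 (0.12, adjusted p = 0.0377) were higher. Stard4 (-0.18, adjusted p = 0.00224), Srebf2 (-0.21, adjusted p = 0.00354) and Lpl (-0.50, adjusted p = 0.0077) were lower, all by limma. Lrp1 lost its call without the 2 arrays that correlated least (0.09, adjusted p = 0.0808), and without sham rat 2, 4 or 5 or stimulated rat 2 or 5 of 7 d, or sham rat 5 or stimulated rat 1, 2 or 5 of 30 d (adjusted p 0.0319 to 0.0741 over the fits that left out 1 rat).

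Whether the change at 30 d differed from that at 7 d was tested directly. No member and no probe set at all passed (limma, 0.0% of 15800, with 251 higher, 1.59%, and 431 lower, 2.73%, at an unadjusted p under 0.05). Of the members 3 had an unadjusted p under 0.05 (8.82%), all towards less lowering at 30 d: Cyp51 (difference 0.43, unadjusted p = 0.00196), Stard4 (0.18, unadjusted p = 0.0222) and Ebp (0.26, unadjusted p = 0.0379), with an adjusted p of 0.9996 each. A call at 7 d that is missing at 30 d is therefore not shown to differ between the times.

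The stimulated rats at 30 d were also compared with the stimulated rats at 7 d. Of the members 7 rose, 20.6%, against 7.66% of all probe sets, and 0 fell, against 5.87%. These were the synthesis genes Cyp51 (0.40, adjusted p = 0.00803), Fdft1 (0.49, adjusted p = 0.0139), Nsdhl (0.49, adjusted p = 0.0315), Msmo1 (0.37, adjusted p = 0.0362), a methylsterol oxidase, and Ebp (0.28, adjusted p = 0.0348), and the sensing genes Insig1 (0.57, adjusted p = 0.0131) and Insig2 (0.30, adjusted p = 0.0315), all by limma.

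Insig1 measured 8.14, 7.90, 8.33, 8.21 and 8.55 in the stimulated rats at 30 d, against 8.03, 7.70, 7.94, 7.48 and 7.14 in those at 7 d. The ranges overlapped through the lowest rat at 30 d and the 2 highest at 7 d. Fdft1 measured 9.04, 8.80, 9.19, 9.24 and 9.58 in the stimulated rats at 30 d, against 8.87, 8.67, 8.89, 8.44 and 8.53 in those at 7 d, and overlapped only through stimulated rat 2 at 30 d.

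In the sham rats the same comparison gave 0 calls among the members and 0.0% of all probe sets (limma, with 1246 higher, 7.89%, and 861 lower, 5.45%, at an unadjusted p under 0.05). Among the members Fdft1 was higher (0.29, unadjusted p = 0.0247) and Pmvk, the phosphomevalonate kinase, lower (-0.16, unadjusted p = 0.0197) at an unadjusted p under 0.05. The calls between the times in stimulated rats depended on the rats included. Without the 3 arrays highest in CA1 markers 0 of the 7 were called, with changes of 0.19 to 0.47, and 72 of all probe sets were called instead of 2138. Without the 2 arrays that correlated least 3 were called, Cyp51, Fdft1 and Insig1.

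**Figure D5:**
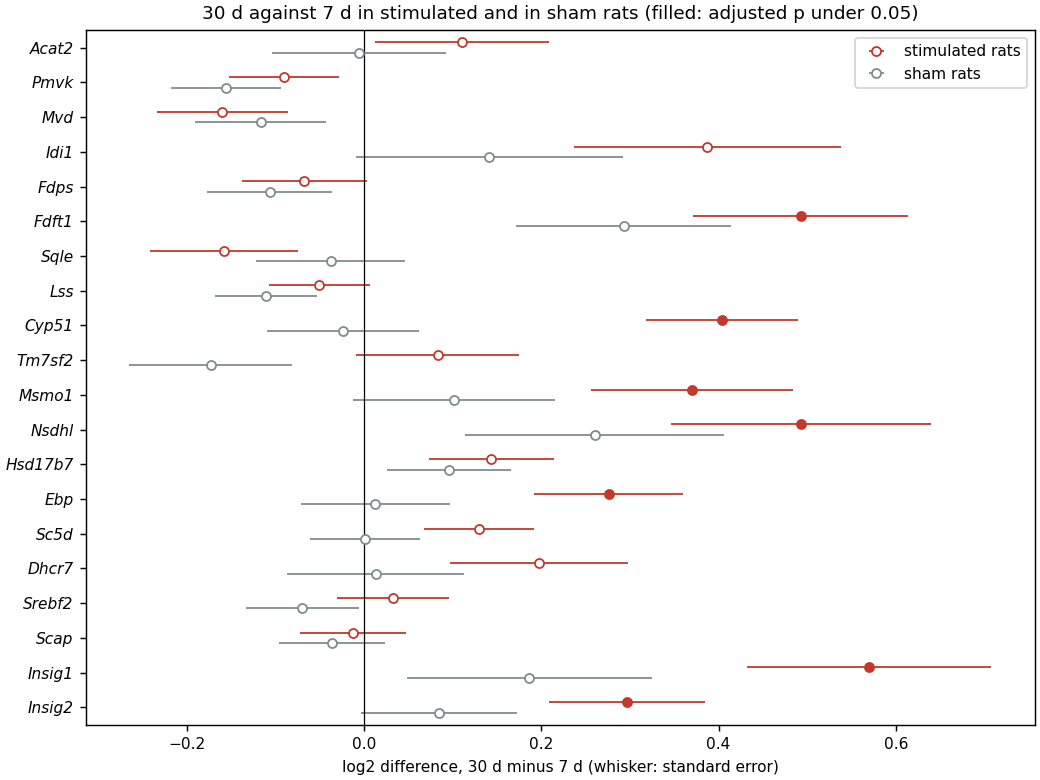
Log2 difference, 30 d minus 7 d, of the 16 synthesis and 4 sensing genes in stimulated rats (red) and in sham rats (grey), with the standard error as a whisker (n = 5 per group). Filled points have an adjusted p under 0.05, which are 7 genes in stimulated rats and 0 in sham rats.

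Of 89 further genes of lipid handling, listed beside the members, 68 were measured. At 7 d 6 of them rose and 2 fell, which is 8.82% and 2.94%, against 4.02% of all probe sets higher and 2.46% lower. At 30 d 3 rose and 0 fell, 4.41% and 0.0%, against 0.835% and 0.899% (limma). At an unadjusted p under 0.05, 9 were higher (13.2%, against 5.42%) and 2 lower (2.94%, against 5.96%) at 30 d. Plin2, a coat protein of lipid droplets, rose at both times (0.65, adjusted p = 0.0006 at 7 d, and 0.57, adjusted p = 0.0062 at 30 d), as did Hsd3b7, an enzyme of oxysterol breakdown (0.20, adjusted p = 0.0417, and 0.32, adjusted p = 0.0063). For both genes all stimulated rats were above all sham rats at 7 d and at 30 d.

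Of the lipoprotein genes Clu, which encodes a second brain apolipoprotein, rose at 7 d (0.21, adjusted p = 0.0127) and Apoc1, a small apolipoprotein, fell (-0.60, adjusted p = 0.0011). Lcat, which esterifies cholesterol on lipoproteins, rose at 30 d (0.53, adjusted p = 0.0366). Of the genes listed as receptors Lrp4 (0.32, adjusted p = 0.0306) and Scarb2 (0.25, adjusted p = 0.0247) rose at 7 d and Sorl1 (-0.26, adjusted p = 0.0154) fell. Tspo, a sterol-binding protein of mitochondria, rose at 7 d (0.22, adjusted p = 0.0360). The 11 measured genes of fatty acid synthesis, which the related factor encoded by Srebf1 controls, had 0 calls at 7 d and at 30 d (limma). At an unadjusted p under 0.05 by limma, 1 was higher and 2 lower at 7 d (9.09% and 18.2%, against 10.1% and 8.37% of all probe sets). At 30 d 1 was higher and 0 lower (9.09% and 0.0%, against 5.42% and 5.96%). As with the synthesis genes, most changes at 7 d were negative (9 of 11, median -0.08). At 30 d 5 of 11 were negative (median 0.02). In stimulated rats 3 of the 11 were higher at 30 d than at 7 d (27.3%, against 7.66% of all probe sets) and 0 were lower (adjusted p under 0.05, limma).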

How the data were processed

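Affymetrix Rat Gene 1.1 ST arrays were used to profile total RNA from the left dentate gyrus of 20 rats. The authors processed the arrays with RMA in oligo 1.22.0 and deposited 1 log2 intensity per probe set and rat, without a floor or filter. Of 29214 probe sets, 18644 were annotated to 1 gene, 962 to several and 9608 to none. The methods set the background at the median of antigenomic probes. Here the 20th percentile of all values (3.69) stood in for it: dimmer values were set to this floor, and 15800 probe sets that exceeded it on all but at most 5 arrays were tested.

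limma 3.58.1 (R 4.3.3) was fitted to the 4 groups of 5 rats, and p-values were adjusted by Benjamini-Hochberg over all probe sets. Values called are those with an adjusted p under 0.05. The steps were tested on simulated data, in which 14 of 50 set log2 changes of 0.25, 42 of 50 of 0.5 and 49 of 50 of 1 were called. The number of arrays limits the precision. All measured members are described, with full values for those called, and of the other lipid genes those called are named. The members, the lists and the tests were chosen with earlier results of these data known. Promoter and miRNA sequences are from RefSeq (GRCr8). No pairing of rats by replicate number was assumed. The alternatives were other filters, scalings, variance models and probe set summaries, a replicate block, leaving out each rat, and, chosen after seeing the data, leaving out 2 arrays of low correlation or 3 high in CA1 markers.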

Additional observations from a re-analysis of the deposited data

Results flagged for a closer look

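For each of the 34 cholesterol genes in each of the 4 groups it was asked whether 1 rat stood far from the other 4, by the gap to its nearest neighbour over the range of the group (above 0.71, Dixon's limit for 5 values). This was so in 12 of 136 cases, and chance gives about 1 in 20.

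Stimulated rat 5 at 7 d was the highest of its group for Abca1 (8.56), Soat1 (7.11) and Mylip (5.44) and the lowest for Lpl (6.06). The same array was the highest in the microglial markers (8.23) and correlated least with the other arrays (0.983). Stimulated rat 5 at 30 d was the highest of its group for Tm7sf2 (6.18), a sterol reductase, and Stard4 (4.95), and it was also the highest in the CA1 markers (7.47).

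Sham rat 3 at 30 d was the lowest of its group for Srebf2 (8.89), Lrp1 (9.51), Fdps (7.73), which makes farnesyl diphosphate, and Tm7sf2 (5.36). Its mean correlation with the other arrays was 0.987. Sham rat 1 at 30 d was the highest for Hsd17b7 (6.60), a ketoreductase of sterol synthesis, and sham rat 4 at 7 d the lowest for Scap (8.19).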

How the results depend on the processing

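Of 4454 comparisons of a single member's value with its value under 33 alternatives, 0 changed the sign of a called value, 87 lost a call and 41 gained one. Lpl was not called at 7 d with no filter, with unmoderated t statistics or with only the groups compared (adjusted p = 0.0980 to 0.103, limma). With no filter, Npc2 was not called at 30 d (0 members higher instead of 1), 163 of all probe sets were called at 30 d instead of 274, and 3 members instead of 7 were higher in stimulated rats at 30 d than at 7 d. Unmoderated t statistics gave 0 members, 150 probe sets and 3 members for these. With array weights 764 probe sets and 1 lower member (Srebf2) were called at 30 d, and 8 members instead of 3 were lower in the mean of both times. With the replicate block 4 members instead of 7 were higher in stimulated rats at 30 d than at 7 d, and Lrp1 was not called in the mean (adjusted p = 0.0511, limma). Deviations of rats with the same number correlated at -0.49 to 0.11 at 7 d and -0.12 to 0.15 at 30 d. For numbers 2 and 5 at 30 d the same number correlated most (0.15 and 0.063), and for all others another number did. These values show no clear pairing by number, but they cannot exclude a weak shared effect, which was not tested. For that comparison of times, leaving out the 2 arrays of low correlation gave 1120 probe sets and 3 members, and leaving out the 3 arrays high in CA1 markers 72 and 0. The cause of these shifts was not tested. With array medians centred the probe sets called at 7 d were 544 higher and 523 lower, with quantile normalization 593 and 434, and as deposited 635 and 389. For stimulated rats at 30 d against 7 d they were 1463 and 691 with medians centred and 1210 and 928 as deposited.

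Leaving out 1 rat at a time gave 2 to 2 members higher and 2 to 8 lower at 7 d, 0 to 1 higher and 0 to 0 lower at 30 d, 2 to 4 higher and 3 to 5 lower in the mean, 3 to 9 higher and 0 to 2 lower in stimulated rats at 30 d against 7 d, and 0 to 0 whose change differed between the times. All probe sets called were 685 to 1257 at 7 d, 132 to 393 at 30 d, 1347 to 1768 in the mean and 876 to 3068 in stimulated rats at 30 d against 7 d. The median change of the synthesis genes was -0.18 to -0.15 at 7 d and -0.09 to 0.01 at 30 d, and that of the efflux and LXR genes 0.06 to 0.15 at 7 d and 0.01 to 0.16 at 30 d. Array intensities carry no counts, and 5 rats per group leave small changes hard to detect.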
